A study of Populus trichocarpa with 378 samples.

Results

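The construct i21 of Populus trichocarpa was made to lower CCoAOMT3, 1 of the caffeoyl-CoA O-methyltransferases of wood-forming tissue, and the question was how far the transcriptome of its trees lay from that of wildtype. Its members were all libraries of batch 6 that carry the name i21, 8 of the 378 libraries of the series, and they were set against the 3 wildtype libraries of the same batch. The 8 libraries came from 3 transgenic lines: line 3 with 3 pools, line 6 with 3 pools and line 8 with 2 pools. Each library was made from stem-differentiating xylem pooled from 3 to 5 clonal trees of the Nisqually-1 genotype, grown for 6 months in a greenhouse. All groups shared this genotype, age and tissue, and wildtype carried no transgene. The transgene was driven by a promoter of a xylem 4-coumarate:CoA ligase gene, so that it acts mainly in the cells that make wood. Pools of a line hold clonal trees, so that the 8 pools stand for 3 independent lines only, and a p-value over pools measures the spread among pools of trees.

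CCoAOMT enzymes transfer a methyl group from S-adenosylmethionine to caffeoyl-CoA, which gives feruloyl-CoA, the precursor of guaiacyl and syringyl lignin units. Lignin is the phenolic polymer that stiffens the secondary walls of fibers and vessels, the main cells of differentiating xylem. CCoAOMT1 and CCoAOMT2 are the other members of the family that this series targeted. The construct i24 was made to lower both and was grown in the same batch as 12 pools. The paper also lists a construct against CCoAOMT1 alone. The 6 pools of i15 were the second point of reference. This construct was made to lower the 4-coumarate:CoA ligases 4CL3 and 4CL5, which act on an earlier step of the same pathway. The batch also held a12 and a13, made to lower 4CL3 or 4CL5 singly. Its other constructs were i30, against an aldehyde O-methyltransferase gene, and i53, against a pair of MYB genes.

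The deposited table gives gene identifiers of the P. trichocarpa v3.0 annotation and does not pair them with names. None of them matched the RefSeq gene table of assembly 4.1, so the level of CCoAOMT3 itself and the marker genes of xylem were not checked here, and genes are given by identifier with the chromosome that the identifier names. The 11 libraries held 8287995 to 23003111 counts over genes, with 30607 to 32446 of the 41334 genes detected and 3.66 to 5.17% of counts in the 10 most abundant genes. The shallowest libraries were i21-8-2 with 8287995 counts, WT-1 with 8745722 and i21-6-1 with 10806417. Levels are counts per 1000000 counts (CPM) after scaling by the trimmed mean of M values (TMM).

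Of the 8 i21 pools, 6 lay close to wildtype, and the pools i21-6-1 and i21-8-2 lay far away. Distance was the root mean square difference in log2 CPM over the 25332 genes that averaged 1 CPM or more. Each wildtype pool was set against the mean of the other wildtype pools, and each i21 pool against the mean of every pair of wildtype pools in turn. It was 0.514, 0.344 and 0.372 in WT-1, WT-2 and WT-3. The pools of line 3 were at 0.49, 0.50 and 0.46. Pools i21-6-2 and i21-6-3 were at 0.406 and 0.420, and i21-8-1 was at 0.480. All 6 of these values were above WT-2 and WT-3 and below WT-1. Over genes of at least 10 CPM the highest of the 6 was 0.366 against 0.361 in WT-1, and with equal depth it was 0.503 against 0.491, so that the top of the wildtype range was passed in both settings. Pool i21-6-1 was at 1.54 and i21-8-2 at 2.09, although the other pools of lines 6 and 8 were close to wildtype.

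The mean distance was 0.799 ± 0.646 (SD, n = 8) in i21 and 0.410 ± 0.0914 (SD, n = 3) in wildtype. This difference did not pass an exact two-sided permutation test (p = 0.285 over 165 arrangements, the smallest possible p being 0.00606). Without i21-6-1 and i21-8-2 the i21 mean was 0.459 ± 0.0385 (SD, n = 6). No test was made on these 6, since the pools left out were picked by their distance. Pools i21-6-1 and i21-8-2 were also the shallowest i21 libraries, and with all 11 libraries thinned to the depth of the smallest one the largest i21 distance was 1.98 and the largest wildtype distance 0.491. WT-1, at nearly the same depth as i21-8-2, was at 0.514.

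**Figure D1:**
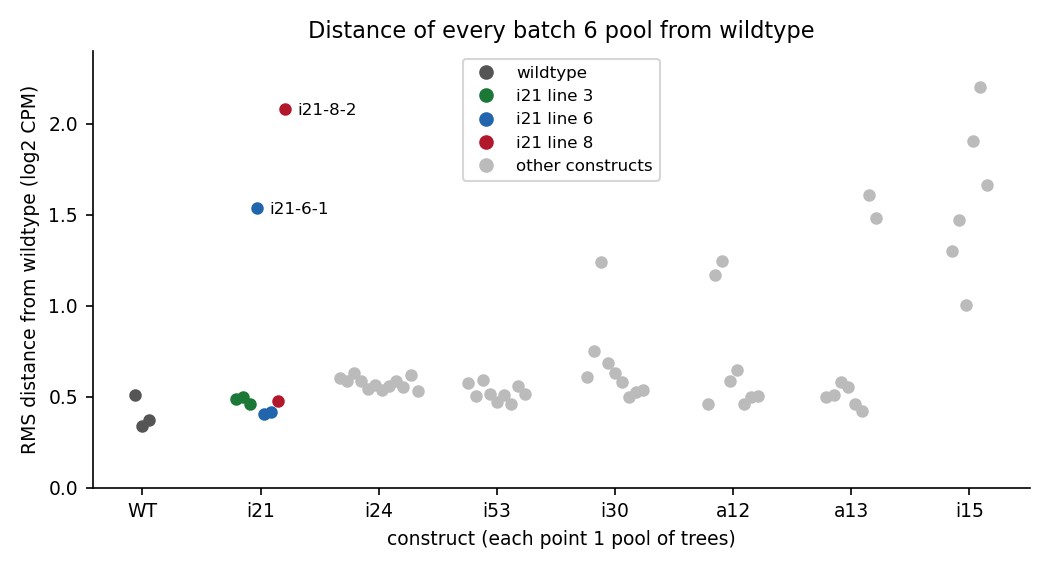
Each point is 1 pool of trees of batch 6, placed by construct on the x axis and by its root mean square distance from wildtype in log2 CPM on the y axis, with all batch pools scaled together. Of the i21 pools, 6 lie in the band of the wildtype pools, and i21-6-1 and i21-8-2 lie among the pools of i15 and the far pools of a13.

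Far pools were not particular to i21. Of the 52 pools of the other 6 constructs of the batch, 11 had a distance of at least 1, the lowest of them at 1.00 and the next pool below at 0.749. All 6 pools of i15 were among them, with 2 pools of a12, 2 of a13 and 1 of i30. All 12 i24 pools lay between 0.531 and 0.633. The order of the construct medians, 0.482 in i21, 0.576 in i24 and 1.57 in i15, was a description only, since all constructs were set against the same 3 wildtype pools. The labels give no sub-batch within batch 6, so a shared harvest or preparation of the far pools was not tested.

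Gene by gene, the near pools held few large differences from wildtype. A gene was counted when a pool was at least 4-fold above or below every wildtype pool and the higher side reached 5 CPM. Each wildtype pool was set against the other wildtype pools only. An i21 pool had to pass all of them, a stricter rule that can only lower its counts. WT-1 had 99 such genes above and 44 below, WT-2 had 8 and 0, and WT-3 had 13 and 1. The 3 pools of line 3 had 5, 28 and 8 genes above and 29, 22 and 29 below. Pool i21-6-2 had 8 above and 2 below, i21-6-3 had 24 and 6, and i21-8-1 had 31 and 12. In each of these 6 pools the sum was below that of the shallow pool WT-1, under the stricter rule for i21. In contrast, i21-6-1 had 964 genes above and 1465 below, and i21-8-2 had 1926 above and 2534 below, the latter being 4.66% and 6.13% of all genes in the table.

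**Figure D2:**
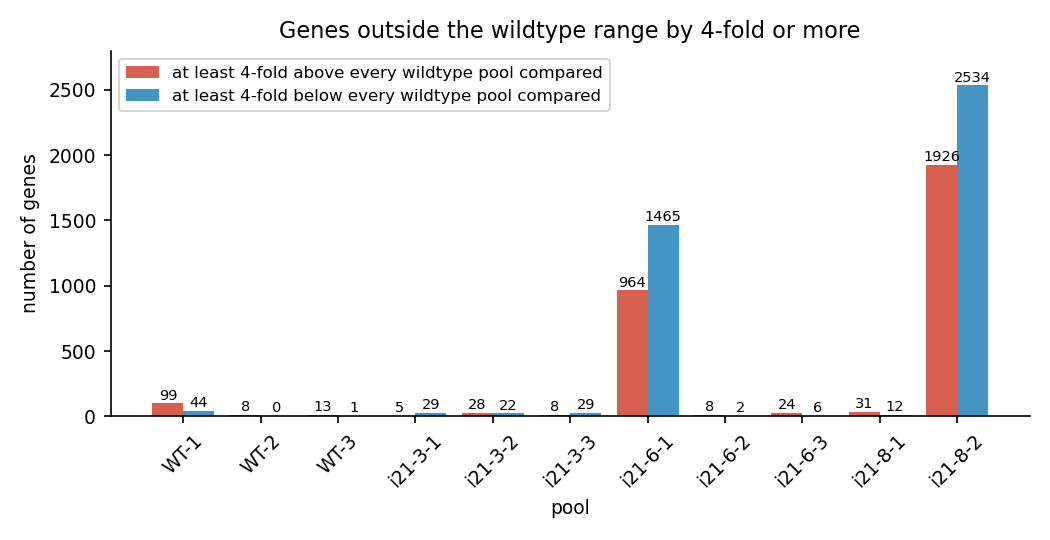
Bars give the number of genes in each pool that were at least 4-fold above (red) or below (blue) every wildtype pool, with at least 5 CPM on the higher side, on a linear axis from 0. Wildtype pools were set against the other wildtype pools only. Only the bars of i21-6-1 and i21-8-2 exceed 100 genes in either direction.

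The abundant transcripts of wildtype xylem took a smaller share of the counts in the far pools. The 500 most abundant wildtype genes held 31.3 to 34.4% of the counts in the wildtype pools and 31.6 to 32.9% in the 6 near i21 pools. They held 17.6% in i21-6-1 and 13.1% in i21-8-2. Genes without a single count in wildtype took 0.00454 to 0.00857% of counts in the near pools, 0.0610% in i21-6-1 and 0.419% in i21-8-2. At a level of 5 CPM or more, 22 such genes were found in i21-6-1 and 86 in i21-8-2, against 0 to 2 in each of the near pools. The counts were not concentrated in fewer genes, since 1988 genes in i21-6-1 and 1869 in i21-8-2 made up 50% of the counts, against 1509 to 1627 in the near pools and 1432 to 1660 in wildtype. Marker genes of bark, phloem or other tissues could not be looked up by name in this table, and a part of other cell types in these values was not tested. In pooled tissue, fewer cells of a type and less RNA per cell cannot be told apart.

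Single genes showed how far these pools had moved, and these 4 were chosen after their values were seen, as the largest differences shared by both far pools. Potri.013G101000 on chromosome 13 was at 17.9, 13.1 and 27.6 CPM in wildtype. It was at 2476 CPM in i21-6-1 and 5096 CPM in i21-8-2. It varied among the near pools as well, with 14.0 to 26.4 CPM in line 3, 33.4 CPM in i21-6-3, 277 CPM in i21-6-2 and 487 CPM in i21-8-1. The same gene was at 888 to 9252 CPM in the 6 i15 pools and at 1.32 to 182 CPM in the 12 i24 pools. Potri.006G196900 on chromosome 6 was at 0.685 to 3.70 CPM in wildtype, 1.23 to 8.18 CPM in the near pools, 307 CPM in i21-6-1 and 507 CPM in i21-8-2. Its value in i21-8-2 was the highest of all 378 libraries.

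Both genes chosen for the largest decrease were abundant in the near pools. Potri.012G091500 on chromosome 12 was at 66.6 to 69.9 CPM in wildtype and 48.9 to 60.1 CPM in the near pools. It was at 0.465 CPM in i21-6-1 and 0.104 CPM in i21-8-2. Potri.016G045500 on chromosome 16 was at 352 to 398 CPM in wildtype, 325 to 442 CPM in the near pools, 4.11 CPM in i21-6-1 and 5.29 CPM in i21-8-2. The near pools overlapped wildtype in the latter gene, and the far pools were far below both.

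Comparisons between pools that do not use wildtype gave the same picture. Pearson correlations of log2 CPM were computed across 25797 genes, which are not independent replicates. The 6 near pools correlated with each other at r of 0.975 to 0.987, against 0.970 to 0.988 among wildtype pools. Pool i21-6-1 correlated with its own line mates i21-6-2 and i21-6-3 at 0.804 and 0.784 and differed from them by at least 4-fold in 2588 and 2998 genes. Pool i21-8-2 correlated with its line mate i21-8-1 at 0.644 and differed from it in 5062 genes. The near pools i21-8-1 and i21-6-3, which belong to different lines, had r of 0.986 and differed by 4-fold in 20 genes.

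The far pools were nearer to far pools of other constructs than to any i21 pool. The library of the whole series that correlated best with i21-8-2 was i15-3-2 (r = 0.960, with 333 genes differing 4-fold), followed by i15-3-1 (r = 0.951) and i15-3-3 (r = 0.935). The library that correlated best with i21-6-1 was a13-6-1 (r = 0.962, 281 genes), followed by i15-1-1 (r = 0.933). The far i21 pools correlated with each other at 0.893 and differed in 1638 genes. For each of the other 6 i21 pools, the single best match was an i21 pool, and for each pool of line 3 it was a line mate. The margins were small, since i21-3-3 correlated at 0.982 with both i24-6-1 and its line mate i21-3-2.

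**Figure D3:**
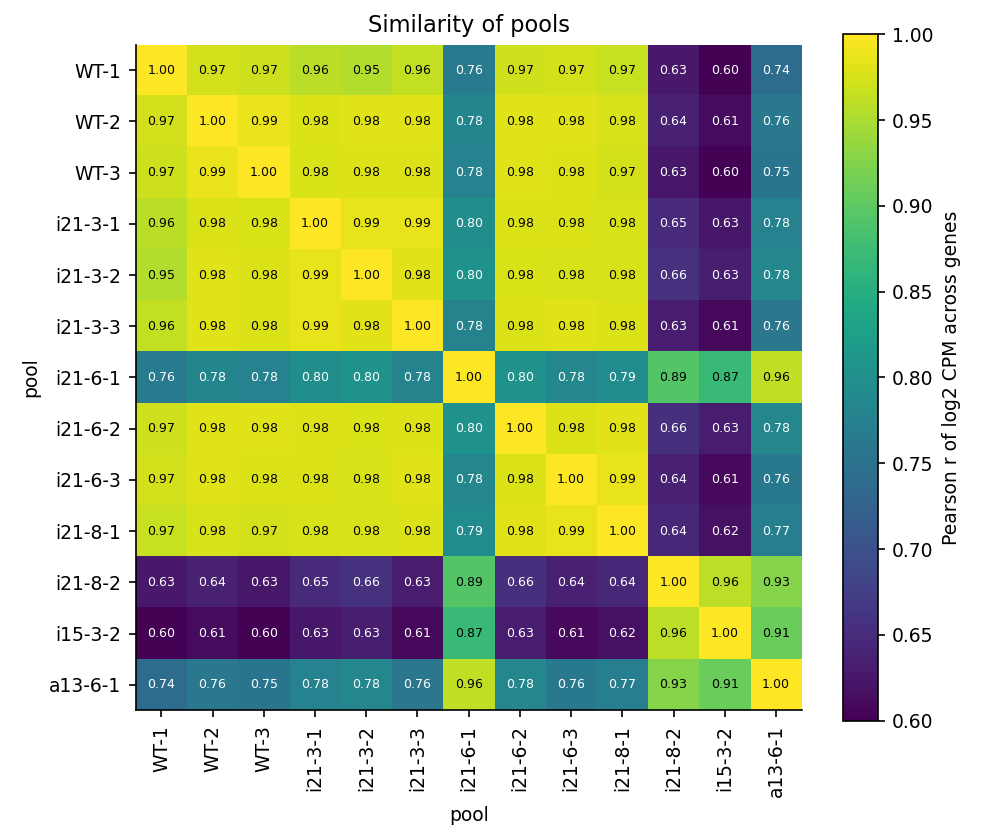
Each cell gives Pearson's r of log2 CPM across 25797 genes between a pair of pools, with colour from 0.60 to 1. The rows of i21-6-1 and i21-8-2 are dark against wildtype and the other i21 pools and light against each other, i15-3-2 and a13-6-1.

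With all 8 pools, no gene was called between i21 and wildtype. The quasi-likelihood test of edgeR called 0 of 27045 genes (0%) at a Benjamini-Hochberg adjusted p under 0.05, with 1136 genes at an unadjusted p under 0.05. DESeq2 called 113 genes, 42 higher and 71 lower. The biological coefficient of variation was 0.465 with all pools and 0.165 without i21-6-1 and i21-8-2. Line by line, edgeR called 0 genes (0%) of 28184 against wildtype in each of lines 3, 6 and 8, with 796, 1316 and 4058 genes at an unadjusted p under 0.05. DESeq2 called 180, 23 and 611 genes. Without i21-8-1, line 8 is the pool i21-8-2 alone, and 11672 genes were then called, the lone pool being assumed to vary like the others.

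Without the 2 far pools, some differences between i21 and wildtype passed the test. This setting was chosen after the distances had been seen. edgeR called 64 of 26682 genes (0.24%), 41 higher and 23 lower in i21, and DESeq2 called 575. The median change was 0.70 on the log2 scale for the genes that rose and -1.80 for those that fell, against 0.01 over all genes tested. Of the genes that rose 9 changed at least 2-fold, and of those that fell 14 did. A change of at least 4-fold was found in 1 gene that rose and 8 that fell. The count rested on single pools: leaving out any 1 pool gave 3 to 145 calls, and only without i21-6-3 did it stay within 1.5 times of 64, at 48. It was 145 without i21-6-2, 20 without i21-8-1, 5 to 7 without a pool of line 3, and 3 to 9 without a wildtype pool. Summed to 1 value for each line, 0 genes were called.

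The identifiers given for this comparison are the 2 genes with the smallest p in each direction among those whose pools did not overlap and whose higher group reached 5 CPM. This rule was set after values had been seen. Potri.011G160800 on chromosome 11 was at 46.8, 54.1 and 51.3 CPM in the wildtype pools. It was at 98.7, 96.0 and 81.9 CPM in line 3, at 92.0 and 89.0 CPM in i21-6-2 and i21-6-3, and at 83.9 CPM in i21-8-1. The far pools, which were not in the fit, were at 144 and 174 CPM, so that all 8 i21 pools were above wildtype. The log2 fold change over 6 pools was 0.84 ± 0.08 (SE; edgeR adjusted p = 0.00852). Potri.011G062400, on the same chromosome, went from 58.5 to 68.4 CPM in wildtype to 96.2 to 115 CPM in the 6 pools, with a log2 fold change of 0.76 ± 0.08 (SE; edgeR adjusted p = 0.0103). It was at 195 and 231 CPM in i21-6-1 and i21-8-2.

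Of the genes that fell, Potri.001G059900 on chromosome 1 was at 150 to 227 CPM in wildtype and 86.5 to 115 CPM in the 6 pools, a log2 fold change of -0.89 ± 0.13 (SE; edgeR adjusted p = 0.0395). The far pools were at 110 and 73.3 CPM, also below every wildtype pool. Potri.018G094900 on chromosome 18 was at 18.4, 10.7 and 7.69 CPM in wildtype and 1.10 to 3.91 CPM in the 6 pools, a log2 fold change of -2.46 ± 0.36 (SE; edgeR adjusted p = 0.0395). Its level was 1.32 CPM in i21-6-1 and 0.415 CPM in i21-8-2.

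The medians of the other 6 constructs of the batch lay on the same side of wildtype in these genes, as given here for 3 of the 4. Potri.001G059900 had medians of 70.2 to 105 CPM, against 204 CPM in wildtype. Potri.018G094900 had medians of 0.356 to 4.70 CPM, against 10.7 CPM. Potri.011G160800 had medians of 59.5 to 118 CPM, against 51.3 CPM in wildtype and 89.1 CPM over the 370 libraries of the series outside i21.

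Line 3 gave the most calls against wildtype among the near pools, with 3 pools in the test against 2 for line 6 and 1 for line 8. By distance and by genes that differed 4-fold it did not stand out from i21-8-1. Without the far pools, edgeR called 413 of 28022 genes (1.47%) in line 3, 154 higher and 259 lower, and DESeq2 called 1039. Leaving out 1 pool gave 96 to 363 calls, with 258 without WT-3, 96 without i21-3-1 and 137 without i21-3-2. With line 3 and wildtype alone in the fit, 379 genes were called, and neither far pool is in that fit. Genes that fell changed more, with a median log2 fold change of -1.56 and 100 of 259 lower by at least 4-fold. Genes that rose had a median of 0.73, and 4 of 154 reached 4-fold. The median over all genes tested was 0.00. The calls were spread over the genome: 0.881 to 2.03% of the genes tested were called on each of the 19 chromosomes, and 2.53% on the scaffolds.

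The levels of the genes called in line 3 are given for the other pools side by side, without a test. The genes were chosen against the same wildtype pools, which by itself moves these values in the direction of the choice. The 259 genes that fell had a median log2 difference from the wildtype mean of -1.59, -1.52 and -1.55 in the pools of line 3. It was -0.50 in both i21-6-2 and i21-6-3 and -0.91 in i21-8-1. In the wildtype pools themselves it ranged from -0.18 to 0.33, WT-1 being the high one. It was -1.03 in i21-6-1 and -0.48 in i21-8-2. Over all genes tested the median was -0.04 in i21-6-1, -0.08 in i21-8-2 and between -0.01 and 0.01 in the other pools.

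Potri.013G083900 on chromosome 13 was nearly private to line 3. It was at 19.9, 26.5 and 25.2 CPM in the 3 pools of line 3 and at 0 in all wildtype pools, in i21-6-1 and in both pools of line 8. It was at 0.133 and 0.422 CPM in i21-6-2 and i21-6-3. Outside line 3, the highest level among the 375 libraries of the series was 2.67 CPM, and the median was 0. Wildtype had 0 of 48511476 counts in this gene. Against a floor of 3 counts over the wildtype group, the lowest pool of line 3 was at least 338-fold higher, on the scale of library totals without TMM scaling. The edgeR adjusted p was 0.000330 without the far pools and 0.251 with them in the fit.

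Potri.011G031300 on chromosome 11 was at 21.8, 21.3 and 21.5 CPM in line 3 and at 9.96 to 11.2 CPM in wildtype, a log2 fold change of 1.02 ± 0.08 (SE; edgeR adjusted p = 0.000656). It was intermediate in i21-6-2, i21-6-3 and i21-8-1, at 13.5, 14.7 and 15.9 CPM. Its medians in the other 6 constructs of the batch were 14.4 to 26.1 CPM, also above wildtype. Potri.002G119300 on chromosome 2 was at 49.7, 36.6 and 36.5 CPM in wildtype and 7.37, 8.69 and 8.39 CPM in line 3, a log2 fold change of -2.31 ± 0.13 (SE; edgeR adjusted p = 0.000330). It was at 22.1 and 21.9 CPM in i21-6-2 and i21-6-3 and at 12.0 CPM in i21-8-1, and the far pool i21-8-2, at 37.3 CPM, lay within the wildtype range. In the other 6 constructs of the batch its medians were 5.17 to 30.3 CPM. Potri.004G146000 on chromosome 4 was at 10.6 to 12.4 CPM in wildtype and 2.64 to 3.25 CPM in line 3, a log2 fold change of -2.04 ± 0.12 (SE; edgeR adjusted p = 0.000330). It moved apart in i21-8-1, which was at 21.2 CPM. Neither level was particular to these pools. The medians of Potri.004G146000 in the other 6 constructs of the batch ran from 4.48 CPM in i53 to 28.2 CPM in i15. The lowest pools of a12 and i53 were at 2.47 and 2.25 CPM.

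**Figure D4:**
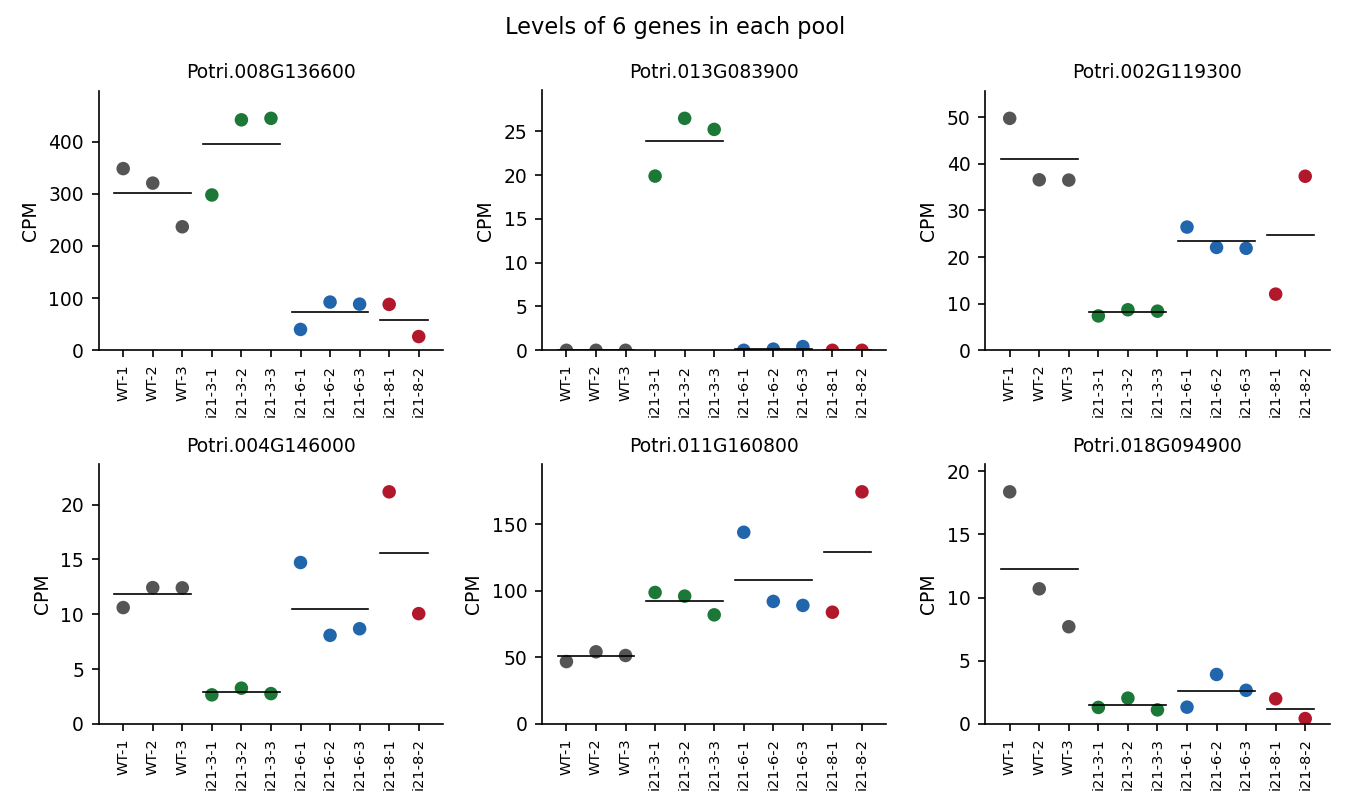
Each panel gives the CPM of 1 gene in the 3 wildtype pools (grey) and the pools of i21 lines 3 (green), 6 (blue) and 8 (red), on a linear axis from 0, with the mean of each group as a line. In Potri.008G136600 the 5 pools of lines 6 and 8 lie below wildtype and line 3 does not, and Potri.013G083900 is raised in line 3 only among these pools.

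The lines were also tested against each other, in the same fit, so that the wildtype pools added to the estimate of the spread only. With all pools, edgeR called 0 genes (0%) between lines 3 and 6, 3 and 8, and 6 and 8, with 1324, 3708 and 955 genes at an unadjusted p under 0.05. DESeq2 called 70, 838 and 42. Without the far pools, edgeR called 44 genes (0.157%) between lines 3 and 6, 5 higher and 39 lower in line 3. It called 39 genes (0.139%) between i21-8-1 and line 3, 36 of them higher in i21-8-1. Between i21-8-1 and line 6 it called 0 genes (0%), with 1223 at an unadjusted p under 0.05 and 12 called by DESeq2. The pool i21-8-1 is the only near pool of line 8, so its own spread is not known and was taken from the other groups.

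Potri.008G136600 on chromosome 8 separated line 3 from lines 6 and 8. Neither the files nor the reference table name this gene. Whether it is the gene that i21 targets was not tested, and nor was the extent of the knockdown in any line, line 3 included. It was an abundant transcript in wildtype, at 348, 321 and 237 CPM. In line 3 it was at 298, 442 and 445 CPM, overlapping wildtype. In line 6 it was at 39.98, 92.4 and 88.5 CPM, and in line 8 at 88.0 and 26.3 CPM. All 5 pools of lines 6 and 8 were thus below every wildtype and line 3 pool, in near and far pools alike. The log2 difference of line 3 over line 6 was 2.11 ± 0.22 without the far pools (SE; edgeR adjusted p = 0.0128) and 2.41 ± 0.49 with them (SE; edgeR adjusted p = 0.957). The log2 difference of i21-8-1 from line 3 was -2.14 ± 0.29 (SE; edgeR adjusted p = 0.0438).

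Against wildtype this gene missed the threshold in either line. The log2 fold change was -1.72 ± 0.21 in line 6 (SE; edgeR adjusted p = 0.0672) and -1.75 ± 0.28 in i21-8-1 (SE; edgeR adjusted p = 0.0599) without the far pools. With them it was -2.03 ± 0.49 in line 6 and -2.39 ± 0.58 in line 8 (SE; edgeR adjusted p = 0.832 and 0.324). Among the 370 libraries of the series outside i21, the median was 390 CPM and the range 55.7 to 722 CPM, and 3 libraries (0.811%) were at or below the 92.4 CPM of i21-6-2. These were a22-10-1 at 55.7 CPM, i19-7-2 at 68.8 CPM and i15-3-2 at 71.2 CPM, and none was wildtype. In the 12 i24 pools it was at 339 to 509 CPM.

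The other genes chosen by the rule for this comparison were lower in line 3 than in line 6. Potri.010G171000 on chromosome 10 was at 23.0, 24.5 and 25.4 CPM in line 3 and at 51.3 and 53.3 CPM in i21-6-2 and i21-6-3, a log2 difference of -1.12 ± 0.09 (SE; edgeR adjusted p = 0.00497). Wildtype was at 54.4 to 60.8 CPM. The level of line 3 was not particular to it, since the other constructs of the batch had medians of 19.2 to 35.9 CPM. The median was 28.6 CPM over the 370 libraries outside i21. The far pool i21-6-1, at 25.6 CPM, was near line 3 and not near its own line mates. Potri.004G146000, described above, was at 8.08 and 8.68 CPM in i21-6-2 and i21-6-3, a log2 difference of line 3 from line 6 of -1.55 ± 0.13 (SE; edgeR adjusted p = 0.00597).

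Few genes were called in lines 6 and 8 once the far pools were left out. In line 6, edgeR called 2 of 28022 genes (0.00714%), both higher, with 2433 at an unadjusted p under 0.05, and DESeq2 called 136. Leaving out single pools gave 0 to 5 calls: 5 without WT-1, 5 without WT-3, and 0 without WT-2, i21-6-2 or i21-6-3. In i21-8-1, edgeR called 52 genes (0.186%), 44 higher and 8 lower. The count was 86 without WT-1 and 0 without WT-2 or without WT-3. The median log2 fold change was 0.99 for genes called higher and -2.15 for genes called lower.

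Potri.014G116800 on chromosome 14 was at 29.8 CPM in i21-8-1 and at 1.41 to 5.02 CPM in wildtype, a log2 fold change of 3.35 ± 0.37 (SE; edgeR adjusted p = 0.0301). It was above wildtype in every i21 pool other than i21-8-2, which was at 2.59 CPM, with 16.0 to 22.3 CPM in line 3, 10.3 and 11.6 CPM in i21-6-2 and i21-6-3, and 19.8 CPM in i21-6-1. Its median was 29.6 CPM over the 370 libraries outside i21. Potri.012G145800 on chromosome 12 was at 7.54 CPM in i21-8-1 and 22.3 to 27.2 CPM in wildtype, a log2 fold change of -1.69 ± 0.21 (SE). All other i21 pools were also below wildtype, at 5.44 to 18.5 CPM. The other constructs of the batch had medians of 6.86 to 11.3 CPM in this gene. Potri.002G119300 also fell in i21-8-1, with a log2 fold change of -1.73 ± 0.20 (SE; edgeR adjusted p = 0.0301).

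A run of neighbouring identifiers on chromosome 10 was raised in i21-8-1. The run was picked after its values had been seen. All 13 genes from Potri.010G019300 to Potri.010G020500 were above every wildtype pool in i21-8-1, against 28.8% of all genes tested, and 6 of them were among the 52 calls. In i21-8-2, 9 of the 13 were above every wildtype pool, against 41.6% of all genes tested. Outside line 8, the pools of line 3 had 8, 7 and 1 of the 13 above every wildtype pool. Pools i21-6-1, i21-6-2 and i21-6-3 had 6, 0 and 7. The share over all genes was not worked out for lines 3 and 6, so these counts cannot be set against it. In Potri.010G019800, the gene of the run with the highest wildtype mean (56.1 CPM), the difference from that mean was the smallest, at 4.54 CPM. Over the run the difference was 4.54 to 10.6 CPM, with a median of 10.0 CPM. Potri.010G020500, for instance, was at 13.2 CPM in i21-8-1, 2.396 to 3.33 CPM in wildtype and 2.75 to 3.71 CPM in the other 7 i21 pools, with a log2 fold change of 2.15 ± 0.21 (SE; edgeR adjusted p = 0.0301). Pool i21-8-2 of the same line was at 3.32 CPM. The edge of the run was not sharp on 1 side. Potri.010G019200 was at 40.98 CPM in i21-8-1 and 32.2 to 36.2 CPM in wildtype, a difference of 6.84 CPM, whereas Potri.010G020600 was at 102 CPM and 98.3 to 108 CPM. Levels as high were common elsewhere, since 134 of the other 377 libraries of the series had at least the Potri.010G020500 level of i21-8-1, up to 44.2 CPM in a5-2-2. Potri.010G020000 and Potri.010G020100 had equal counts in all 11 pools, so they are not separate evidence here, and it is not known here how counting assigned reads that overlap several genes.

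**Figure D5:**
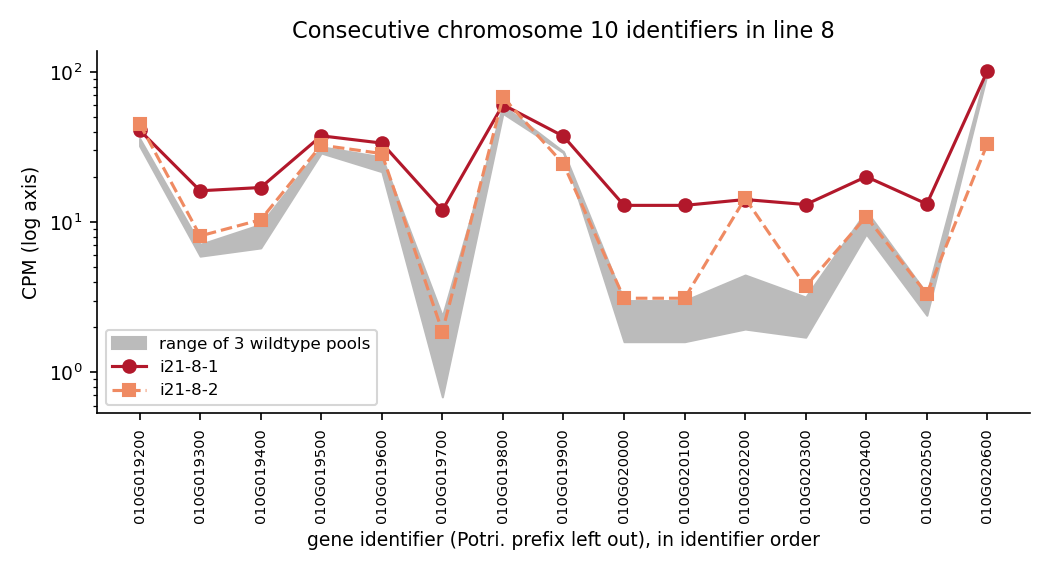
Levels in CPM on a log axis are given for 15 consecutive gene identifiers of chromosome 10 in i21-8-1 (circles), i21-8-2 (squares) and the range of the 3 wildtype pools (grey band). From 010G019300 to 010G020500 the circles lie above the band, by 4.54 to 10.6 CPM from the wildtype mean. The squares lie above the band in 9 of these 13 genes, with 3.32 CPM in 010G020500 and 14.4 CPM in 010G020200.

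Constructs i21 and i24, both aimed at CCoAOMT genes, differed in many genes and mostly by little. edgeR called 6745 of 25950 genes (26%) with all pools, 4460 higher and 2285 lower in i21. Without the far pools it called 7380 of 26173 genes (28.2%), 3668 higher and 3712 lower. The differences had a median absolute log2 difference of 0.34 among the called genes, against 0.16 over all genes tested, and 537 of 7380 changed at least 2-fold (430 higher and 107 lower in i21). With 12 pools in i24 and 6 in i21, smaller differences pass than against the 3 wildtype pools, so this count and those against wildtype cannot be set side by side as sizes of effect. The i24 pools also come from fewer lines than pools, so these p-values measure the spread among pools. A fit with the pools of each line summed was not made for this comparison. Without line 8 the counts were 4837 with all remaining pools and 5695 without the far pools.

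Potri.010G221100 on chromosome 10 was at 37.9 to 49.9 CPM in the 6 near i21 pools (median 43.9) and 13.4 to 19.0 CPM in the 12 i24 pools (median 16.1), a log2 difference of 1.42 ± 0.07 (SE; edgeR adjusted p = 1.80e-10). Wildtype lay between, at 26.7 to 30.3 CPM. Potri.014G056600 on chromosome 14 was at 20.0 to 37.6 CPM in i21 (median 27.9) and 4.81 to 7.67 CPM in i24 (median 6.65), a log2 difference of 2.14 ± 0.12 (SE; edgeR adjusted p = 2.94e-09). Wildtype, at 18.9 to 46.2 CPM, overlapped i21 in this gene.

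Potri.002G052300 on chromosome 2 was lower in i21, at 61.2 to 75.4 CPM (median 69.2) against 95.4 to 104 CPM in i24 (median 99.5), a log2 difference of -0.54 ± 0.04 (SE; edgeR adjusted p = 1.49e-08). Potri.008G125200 on chromosome 8 was at 7.28 to 8.69 CPM in i21 (median 8.46) and 12.5 to 16.8 CPM in i24 (median 13.9), a log2 difference of -0.79 ± 0.07 (SE; edgeR adjusted p = 2.30e-07). Wildtype was at 57.5 to 73.2 and 7.71 to 9.47 CPM in these genes, and i21 overlapped it in both. In 3 of these 4 genes the near i21 pools overlapped wildtype and the i24 pools did not. The 4 were picked by smallest p among called genes without overlap between i21 and i24. The share over the 7380 called genes was not worked out, so these 4 do not describe the others.

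No gene was called between line 8 and i15, and the pools of line 8 were far apart. edgeR called 0 of 27109 genes (0%) with both pools of line 8, with 1190 at an unadjusted p under 0.05 and 42 called by DESeq2. With i21-8-1 alone, edgeR again called 0 genes (0%) of 28415, with 9135 at an unadjusted p under 0.05, and DESeq2 called 6348. The pools of line 8 lay on either side: i21-8-1 and i15-3-2 had r of 0.619 and 5521 genes that differed 4-fold, whereas i21-8-2 and i15-3-2 had r of 0.960 and 333 such genes.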

How the data were processed

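RNA from xylem pools was sequenced by the authors on an Illumina GAIIx after TruSeq library preparation. They aligned the reads with TopHat and Bowtie to version 3.0 of the P. trichocarpa genome and obtained counts from BedTools. The deposited values are raw counts per gene, with no normalization. Tool versions, strand and the handling of reads with several hits are not given in the sources used here. Of 40803 genes with a count, 493 had counts equal to another gene in every library, and none of these was among the calls tallied against wildtype.

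Counts were tested with edgeR 4.0.16 (TMM factors, filterByExpr, quasi-likelihood fit and test, R 4.3.3), on i21 and wildtype as 2 groups or on wildtype and the 3 lines together. DESeq2 1.42.0 was an alternative, with others on factors, filters, depth and left-out pools. Benjamini-Hochberg adjusted p under 0.05 was the threshold. Log2 CPM used a prior count of 2. The SE of a log2 fold change was worked back from the edgeR test. It is the absolute change divided by the square root of the F statistic. Printed levels were scaled over all 378 libraries. Tables and figures were made with Python 3.11.15, and the tests were run first on simulated data. Depth was 8287995 to 23003111 counts in the 11 libraries, which limits low genes most in WT-1, i21-6-1 and i21-8-2. Counting floors cover counting error only.

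Groups came from the sample titles. The planned gene lists, xylem markers and rule for named genes needed gene names and could not be applied, and the genes given were chosen after values were seen. Members and settings were chosen with earlier results of these data known. Sequences were not used here.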

Additional observations from a re-analysis of the deposited data

Results flagged for a closer look

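Among 30 values tested over the 8 i21 pools with Dixon's criterion, 5 had 1 pool set off from the rest. About 1.5 would be set off by chance among values not chosen by their size, which does not hold for the genes here, since these were chosen after their levels had been seen. Pool i21-8-2 was set off with 86 genes at 5 CPM or more that had no count in wildtype, and with 0.419% of its counts in such genes. It was also set off with 130 CPM of Potri.002G052300, against 59.4 to 75.4 CPM in the other 7 pools. Pool i21-6-1 was set off with 137 CPM of Potri.014G056600, the next pool being i21-8-2 at 73.9 CPM. Pool i21-8-1 was set off with 13.2 CPM of Potri.010G020500.

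The distances from wildtype were not set off in this way, since 2 pools were high together.

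Without i21-6-1 and i21-8-2, lines 3 and 6 differed in genes given by identifier. Potri.013G083900, Potri.008G136600, Potri.010G171000 and Potri.004G146000 were chosen by this same comparison, so that their passing restates the choice. Potri.011G031300 and Potri.002G119300 were chosen with the same line 3 pools against wildtype, so that their passing partly does so too. The log2 difference of line 3 from line 6 was 6.49 for Potri.013G083900, 2.11 for Potri.008G136600, 0.60 for Potri.011G031300 and -1.44 for Potri.002G119300. It was -1.55 for Potri.004G146000, -1.05 for Potri.012G145800 and -1.12 for Potri.010G171000. Adjusted p values of edgeR were 0.00497 to 0.0447.

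Genes chosen in comparisons that shared these pools differed between i21-8-1 and line 3. Their passing partly restates the choice, since they were picked for extreme levels in line 3 or in i21-8-1. The log2 difference of i21-8-1 from line 3 was 2.90 for Potri.004G146000, 1.92 for Potri.010G020500 and -2.14 for Potri.008G136600. It was -11.84 for Potri.013G083900, a fitted value against 0 counts that depends on the prior count and is no bound. Adjusted p values of edgeR were 0.000227 to 0.0438. With all 8 pools in the fit, no gene was called between lines by edgeR.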

How the results depend on the processing

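The far pools i21-6-1 and i21-8-2 decided most counts. The fit of line 3 and wildtype alone was planned and holds neither of them. Every other setting without both far pools was added after the data were seen. With all pools, DESeq2 called 113 genes for i21 against wildtype, 180, 23 and 611 for lines 3, 6 and 8 against wildtype, 838, 42 and 70 for line 8 against line 3, line 8 against line 6 and line 3 against line 6, and 42 for line 8 against i15, where edgeR called 0. With all pools of the batch in the fit, edgeR called 50 genes for i21 against wildtype, and with line 3 and wildtype alone 379 for line 3. Leaving out single pools gave 0 to 11672 calls for line 8 against wildtype, and 0 for i21, line 3 and line 6.

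Without the far pools, DESeq2 called 575 genes for i21 against wildtype, 1039, 136 and 465 for lines 3, 6 and 8, 327, 12 and 369 for the same line pairs, and 6348 for i21-8-1 against i15. Without a filter on low counts edgeR called 632, 20 and 129 genes for lines 3, 6 and 8. With a line and wildtype alone it called 0 for line 6 and 15 for line 8. Leaving out single pools gave 3 to 145 calls for i21, 96 to 363 for line 3, 0 to 5 for line 6 and 0 to 86 for line 8. For i21 against wildtype, summing the pools of a line left 0 calls and leaving out line 8 left 20. The cause of these shifts was not tested.

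Pool numbers are shared between wildtype and i21. Deviations from the group mean of wildtype and line 3 pools with the same number correlated at 0.07, 0.15 and -0.16 across 25332 genes, so the numbers were not read as pairs. The fit with the pool number as a replicate block called 0 genes with all pools and 5 without the far pools. The distance with all pools kept its direction and stayed on the same side of the threshold under all 3 alternatives. Without the far pools the difference in mean distance, which was not tested, was 0.0446 to 0.0559.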
